A study of Rattus norvegicus with 12 samples.

Results

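A set of 62 genes, out of 32754 gene rows, was examined in β-synuclein-reactive CD4+ T cells of the rat: genes whose transcripts were at least 4 times as abundant in cells from the meninges as in cells from blood, and stayed within a factor of 2 of the meningeal level in the brain parenchyma. The members were chosen by the measured values themselves. Levels are in CPM, a gene's count per 1000000 counts of its library, and B, M and P are the mean CPM plus 0.5 in transgenic blood, meninges and parenchyma. A member had M/B of at least 4, P/M from 0.5 to 2, a meningeal mean of 5 CPM or more, and a lowest meningeal library above the highest transgenic blood library. Of the rows, 119 met the limit on M/B, 96 of these also the limit on the meningeal mean, and 63 also the limits on P/M. All 63 also had meningeal libraries above every transgenic blood library. The definition of the set names 3 rows to be left out by identifier, of which 1 otherwise passed, which left 62.

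All cells came from LEW/Crl rats and were sorted after intravenous transfer, at day 3 per the series' design text. There were 4 groups of 3 libraries: wild-type cells (genotype wt) from blood, and cells with a transgenic β-synuclein-specific T cell receptor (genotype b-syn TCR Tg) from blood, from the meninges and from the brain parenchyma. The titles carry the digit 4 after the tissue code for parenchyma and 3 for the others, with no key in the sources used here. If the digit marks a day, tissue and day cannot be told apart in the parenchyma. Nothing in the labels gives the ages of the animals, the promoter driving the receptor or whether replicates came from separate animals. The p-values therefore reflect differences among these libraries alone, which may be technical.

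The meninges are the membranes around the brain. T cells that enter from blood meet macrophages and other cells there that present antigen, and a T cell whose receptor binds its antigen switches on fast-acting transcription factors and then cytokines, chemokines and surface receptors. Cells may then pass into the parenchyma, the nerve tissue itself, where β-synuclein is made by neurons. The deposited tables list Ensembl rat identifiers without names, and 0 lines of the gene table at hand carried such an identifier. The 62 genes are therefore described by identifier, with no function given, and no promoter sequence could be matched to them. The same holds for markers of T cells and of other cells, so the labelled cell type was not checked against its markers. In bulk RNA, a larger share of cells that express a gene and more transcript per cell cannot be told apart.

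Library totals ran from 16643832 to 38601400 counts. No replicate pair of a group agreed within sampling noise in a chi-square test over genes (at least 13.9 per degree of freedom). Same-numbered libraries were not clearly paired. Deviations from the group mean correlated at 0.335, 0.368 and -0.037 between meninges and transgenic blood, for replicates 1, 2 and 3. The correlation of same-numbered libraries was over 0.1 in 0 of 3 pairs of parenchyma with either tissue and in 1 of 3 pairs of the genotypes. Libraries of unlike number correlated as highly. Parenchymal replicates 1, 2 and 3 did so with meningeal replicates 2, 3 and 1, at 0.325, 0.317 and 0.320. Transgenic blood replicate 3 and wild-type blood replicate 1 reached 0.378. The values thus do not mark same-numbered libraries as matched. The main fits did not use the replicate number.

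The 62 genes held about 1% of all counts in the brain compartments and about 0.1% in blood. Their share was 0.133%, 0.0953% and 0.0886% in transgenic blood replicates 1, 2 and 3. It was 0.656%, 1.08% and 1.01% in the meninges, and 1.12%, 0.906% and 0.795% in the parenchyma. Means were 0.106% ± 0.0241 in transgenic blood, 0.915% ± 0.226 in the meninges and 0.941% ± 0.166 in the parenchyma (SD, n = 3). Every meningeal and parenchymal library lay above every blood library, which the choice of the genes favours. Wild-type blood, which took no part in that choice, held 0.0997%, 0.0968% and 0.0881%, a mean of 0.0949% ± 0.00603, within the range of transgenic blood except that its lowest library was below all 3. The share did not rest on 1 gene: the most abundant member took between 10.4% and 16.4% of the members' counts in a meningeal library.

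**Figure D1:**
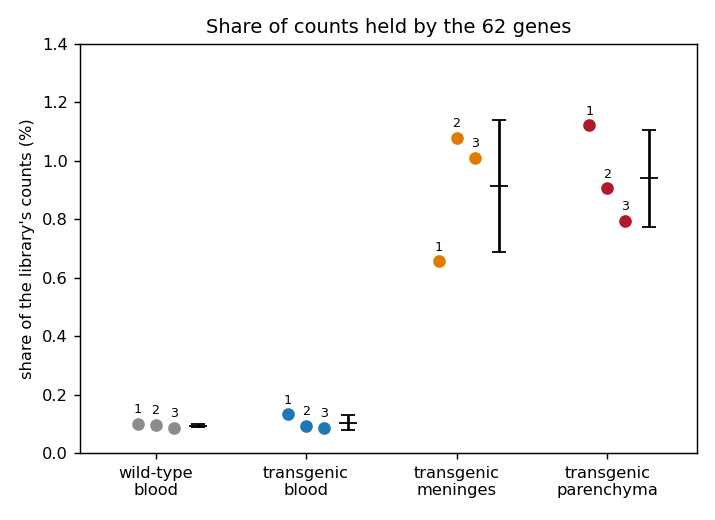
Share of each library's counts held by the 62 genes, in percent, by group; points are libraries with their replicate numbers, and the bar beside them is the mean ± SD. Blood libraries lie between 0.0881% and 0.133%, and libraries of the brain compartments between 0.656% and 1.12%.

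The rise from blood to meninges spanned a wide range within the set. M/B ran from 4.0 to 232, with a median of 6.74. It was under 10 in 44 genes, at least 10 in 18, at least 20 in 12 and at least 100 in 4. Because these ratios chose the members, they are given as a description with no test. The median over members of the mean level was 6.36 CPM in transgenic blood, 65.6 CPM in the meninges and 75.1 CPM in the parenchyma. Gene lengths were not at hand, so levels are not compared between genes.

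ENSRNOG00000012467 had the largest M/B. It stood at 2.45, 3.18 and 3.80 CPM in transgenic blood, at 284, 1186 and 1068 CPM in the meninges, and at 749, 714 and 587 CPM in the parenchyma. Meningeal replicate 1 was the low library of its group, and still lay far above blood, while the parenchymal libraries fell between the meningeal ones. ENSRNOG00000005964, next in order with an M/B of 105, stood at 1.37, 1.57 and 1.37 CPM in transgenic blood. It reached 95.9, 292 and 221 CPM in the meninges and 254, 98.8 and 113 CPM in the parenchyma. The low meningeal library was again replicate 1, and the high parenchymal library was replicate 1.

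At the low end of expression in blood, 2 members had at most 10 counts over the 3 transgenic blood libraries, named here after their values were seen. ENSRNOG00000021851 had 4 counts there and 803 in the meninges, a ratio of library-scaled pooled counts of 161-fold with an exact binomial 95% interval of 62.6 to 592. ENSRNOG00000049919 had 5 counts and 594 counts, a ratio of 95.2-fold with an interval of 40.6 to 294. Its meningeal counts were 380, 78 and 136 in replicates 1, 2 and 3 (16.2, 4.69 and 4.14 CPM). The pooled ratio of ENSRNOG00000049919 thus rests mostly on meningeal replicate 1. These intervals cover counting error only. M/B, which adds 0.5 CPM, was 21.4 and 15.04 for the same genes, so that M/B understates the rise of genes that are nearly silent in blood.

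**Figure D2:**
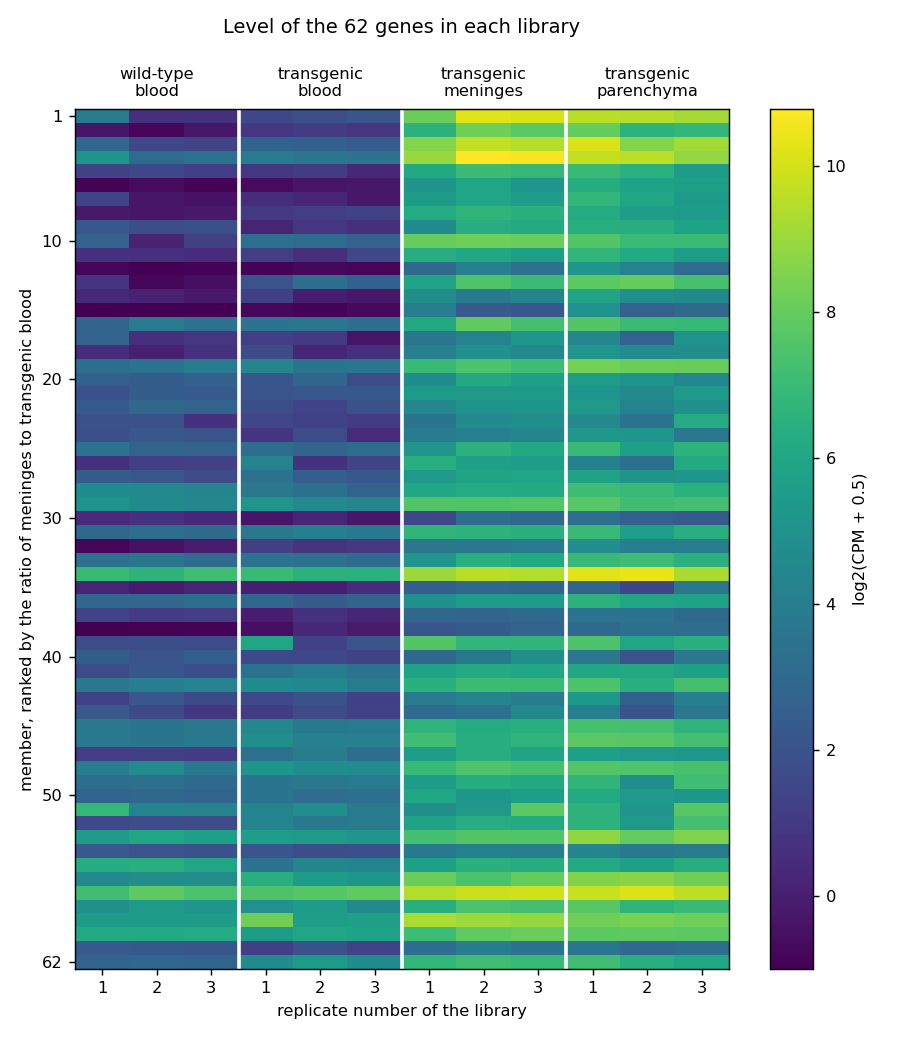
Level of each of the 62 genes as log2(CPM + 0.5) in the 12 libraries, with rows ranked by M/B from 232 at the top to 4.0 at the bottom. Blood libraries of both genotypes are darker (lower) than the libraries of meninges and parenchyma in nearly every row.

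How far the libraries themselves were separated was measured as the lowest meningeal library over the highest transgenic blood library, each plus 0.5 CPM. This ratio was at least 2 in 58 genes and at least 4 in 31, with a median of 3.98. The smallest was 1.04, in ENSRNOG00000026293, which stood at 19.4, 26.6 and 14.5 CPM in transgenic blood and at 27.7, 39.5 and 221 CPM in the meninges. Its mean thus rested on meningeal replicate 3. In the parenchyma it read 98.6, 34.5 and 211 CPM.

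In edgeR's quasi-likelihood test, 58 of the 62 genes were called higher in the meninges than in transgenic blood at an adjusted p under 0.05, where 4.76% of all 11809 tested genes were called higher. The members were chosen on this contrast, so nothing is read from that count. The 4 without a call were ENSRNOG00000026293 and 3 genes, named after their values were seen, that were high in transgenic blood replicate 1 alone. ENSRNOG00000001187 stood at 62.5, 1.96 and 3.62 CPM in transgenic blood, and at 199, 106 and 104 CPM in the meninges. ENSRNOG00000007539 stood at 19.1, 1.17 and 2.26 CPM in blood, and at 82.6, 53.2 and 47.7 CPM in the meninges. For ENSRNOG00000017414 the values were 302, 46.3 and 53.5 CPM in blood and 621, 535 and 491 CPM in the meninges. In all 3 genes the same blood library was between 5.61 and 15.3 times the next highest (with 0.5 CPM added), and the highest meningeal library also carried the number 1. Their log2 fold changes were 2.61, 3.04 and 2.06, and in a fit without transgenic blood replicate 1 they were 5.70, 5.24 and 3.53, at which each was called. Dropping the library in which a gene is high in blood must raise its fold, so these values only show how much rests on that library.

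The same measure was read in single libraries that did not choose the genes, while the libraries they are set against did. When 1 library was left out, the rule was applied to the other 8 transgenic libraries, and the genes so chosen were looked up in the library left out. Genes chosen for a rise of at least 4 times in the other libraries are likely to lie on the same side in it. The share of all tested genes, which were not so chosen, is thus no like measure. As replicates may not be separate animals, the library left out may not be independent. These counts, here and for blood and parenchyma below, are a description. Without meningeal replicate 1, 69 genes passed, and in that library all 69 lay above the highest transgenic blood library, as did 24.0% of all tested genes. Of the 69, 44 were there at least 4 times the blood mean. Without meningeal replicate 2, 53 genes passed, and 53 lay above blood in it (28.4% of all tested genes), 47 at 4 times or more. Without meningeal replicate 3, the numbers were 58, 58 (25.3%) and 52. The median ratio to the blood mean in the unused library was 4.88, 6.95 and 7.40, over gene sets that differ and so do not rank the libraries.

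Leaving out transgenic blood replicate 1 let 69 genes pass, of which 66 were below the lowest meningeal library in the unused blood library, where 31.5% of all tested genes were. For blood replicates 2 and 3, all of the 64 and 59 genes that passed were below it, beside 24.2% and 32% of all tested genes. Without parenchymal replicate 1, 2 or 3, the genes that passed numbered 61, 59 and 56, and in the unused library 59, 57 and 55 of them were above the highest transgenic blood library, beside 39.2%, 38.5% and 37.5% of all tested genes. There the level was at least 4 times the blood mean in 59, 40 and 48 genes. Between 51 and 60 of the genes chosen with 1 library fewer were among the 62, the smallest number being without meningeal replicate 2.

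Parenchyma held these genes near the meningeal level, as the limits on P/M require. P/M had a median of 1.09 and ran from 0.539 to 1.97. It was above 1 in 39 genes and below 1 in 23. No gene was required to stay above blood in every parenchymal library, and in 59 of 62 the lowest parenchymal library was above the highest transgenic blood library, against 24.2% of all tested genes. The 3 that overlapped were the genes high in transgenic blood replicate 1. Since M/B and P/M together nearly fix the ratio of parenchyma to blood, this is a description. The edgeR test called 59 of the 62 higher in parenchyma than in transgenic blood, where 18.7% of all tested genes were called higher. Meninges and parenchyma are compared with the same 3 blood libraries.

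**Figure D3:**
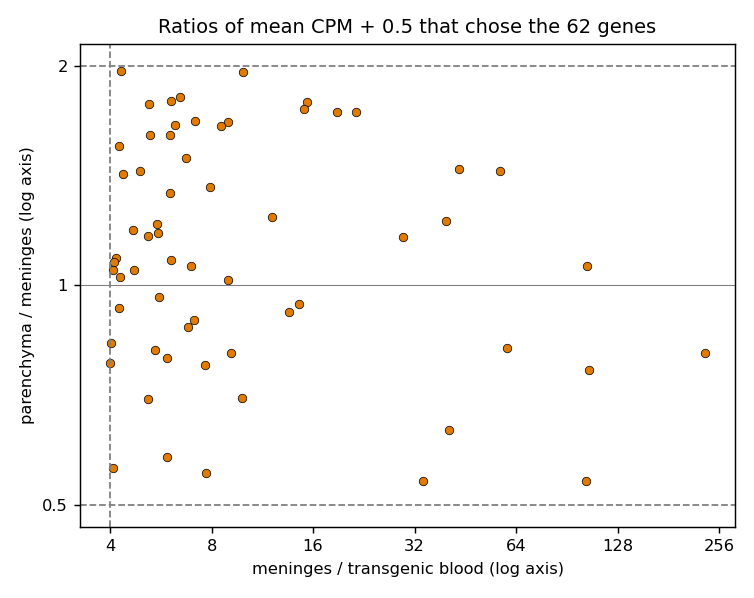
Ratio of parenchyma to meninges against ratio of meninges to transgenic blood, both of mean CPM + 0.5 on log axes; each point is 1 of the 62 genes and dashed lines are the limits of the rule. Points fill the band between 0.539 and 1.97 and thin out to the right, up to 232.

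Between the brain compartments, the ranges of the 3 libraries overlapped in 49 of the 62 genes. In 11 genes every parenchymal library was above every meningeal one, where 21.1% of all tested genes were, and in 2 genes every parenchymal library was below, where 13.4% were. The edgeR test called 2 members higher and 2 lower in the parenchyma, beside 8.0% and 7.48% of all tested genes. The rule caps this difference, so the low count is set by the choice of genes and a missing call does not show equal levels.

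Called higher were the members nearest the upper limit. ENSRNOG00000019311 stood at 154, 198 and 190 CPM in the meninges and 456, 249 and 363 CPM in the parenchyma. ENSRNOG00000012782 stood at 128.2, 176 and 141 CPM in the meninges and 323, 282 and 268 CPM in the parenchyma. In both genes the ranges did not overlap, and both lay above their transgenic blood values, of at most 48.0 and 20.02 CPM. Called lower were ENSRNOG00000019422, at 267, 294 and 285 CPM in the meninges and 197, 130 and 129 CPM in the parenchyma, and ENSRNOG00000017828, at 75.6, 105 and 87.7 against 75.8, 48.9 and 44.6 CPM. The ranges of ENSRNOG00000017828 overlapped by a small margin. ENSRNOG00000019422 passed in each of 11 alternative fits. ENSRNOG00000019311 missed the threshold without any 1 meningeal library and without parenchymal replicate 1. ENSRNOG00000012782 missed it without meningeal replicate 1 or 3 or parenchymal replicate 1, and ENSRNOG00000017828 in 7 of 11 alternatives.

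The limits cut through continuous values. The members nearest the limit on M/B had ratios of 4.0, 4.03 and 4.08, and the rows just outside, which met the other conditions, had 3.99, 3.96 and 3.92. At the upper limit of P/M, members had 1.97, 1.96 and 1.81, and rows outside had 2.11, 2.13 and 2.16. At its lower limit, members had 0.539, 0.539 and 0.553, and rows outside had 0.428, 0.409 and 0.398. Above the upper limit, 23 rows met the other conditions, and below the lower limit 9 did. With M/B of at least 3, 93 rows passed, and with at least 6, 38.

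Wild-type blood took no part in the choice of the genes. In 60 of 62 genes the lowest meningeal library was above the highest wild-type blood library, where 25.3% of all tested genes were. In 57 of 62 the lowest parenchymal library was above it, where 30.6% were. The 5 others, named after their values were seen, were ENSRNOG00000008015, ENSRNOG00000046667, ENSRNOG00000034066, ENSRNOG00000026293 and ENSRNOG00000053766. Here the meningeal and parenchymal values helped to choose the genes, and genotype differs along with tissue. The meningeal mean over the wild-type blood mean, each plus 0.5 CPM, had a median of 8.64 over the members and was at least 4 in 52 of them. It was smallest, at 0.997, in ENSRNOG00000053766, whose libraries stood at 77.04, 83.9 and 59.5 CPM in wild-type blood and 51.3, 89.2 and 79.3 CPM in the meninges. This gene was at 10.8, 20.3 and 19.4 CPM in transgenic blood. Besides it, only ENSRNOG00000026293 had overlapping values in wild-type blood and meninges.

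In blood, the genes were compared between transgenic and wild-type cells. Transgenic blood libraries also entered the rule, which favours genes that happened to be low there, while the wild-type libraries did not. Of the 62 genes, 58 were tested, and 4 were too low in blood for the filter (ENSRNOG00000000640, ENSRNOG00000020729, ENSRNOG00000021851 and ENSRNOG00000049919, with at most 0.734 CPM in any blood library). Transgenic cells were higher in 12 (20.7% of the 58) and lower in 9 (15.5%), beside 13.1% and 12.8% of all 11618 tested genes, and 37 had no call. The median log2 fold change, transgenic over wild-type, was 0.01 over the tested members and -0.01 over all tested genes. Calls went in both directions among the members, as they did among all tested genes, and the median of the set lay near that of all genes. Nothing particular to the set is read from these counts. The log2 fold changes between genotypes ran from -2.15 to 3.50. Those for meninges against transgenic blood ran from 2.06 to 8.13. The rule's limit on M/B of at least 4 set the lower end of that range, so the ranges are not compared.

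The largest ratio of transgenic to wild-type means belonged to ENSRNOG00000001187, at 2.80, 3.07 and 2.70 CPM in wild-type blood, but it rested on transgenic replicate 1 and was not called (log2 fold change 3.00, adjusted p = 0.0614, edgeR). Next in that order, ENSRNOG00000011205 stood at 1.24, 0.0823 and 0.200 CPM in wild-type blood and 3.53, 9.05 and 5.88 CPM in transgenic blood. Every transgenic library was above every wild-type one (log2 fold change 3.50, SE 0.69, adjusted p = 0.00579). Its counts were 48, 3 and 6 in the wild-type libraries, so that the fold rests on few counts there, and it was 5.43 in a fit without wild-type replicate 1. In the meninges the gene stood at 57.9, 188 and 129 CPM. ENSRNOG00000039891 rose without overlap from 1.74, 1.84 and 1.57 CPM in wild-type blood to 10.03, 15.4 and 9.20 CPM in transgenic blood (log2 fold change 2.73, SE 0.23, adjusted p = 7.58e-05). In these 2 genes transgenic blood lay between wild-type blood and the meninges. The rule set the step from transgenic blood to the meninges for every member, so only the order of the genotypes is an observation. That order was not particular to these 2 genes. Over all members, including those not tested in blood, all transgenic blood libraries were above all wild-type ones in 19. They were all below in 11, and the genotypes overlapped in 32.

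The opposite order of the genotypes was seen in ENSRNOG00000053766, with the values above, which was lower in transgenic blood (log2 fold change -2.15, SE 0.24, adjusted p = 0.000335). It was also seen in ENSRNOG00000017376, at 4.30, 3.07 and 3.17 CPM in wild-type blood and 0.659, 1.32 and 1.07 CPM in transgenic blood (log2 fold change -1.81, SE 0.30, adjusted p = 0.00228). The latter reached 25.99, 79.4 and 73.1 CPM in the meninges, far above both blood groups. The former stood in the meninges near its wild-type blood level. These 4 called genes kept their call in each of 11 alternative fits. Over the 58 members tested in blood, wild-type and transgenic libraries did not overlap in 27. The transgenic ones were all higher in 16 (27.6%), where 23.6% of all genes tested in blood were, and all lower in 11 (18.97%), where 20.2% were.

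**Figure D4:**
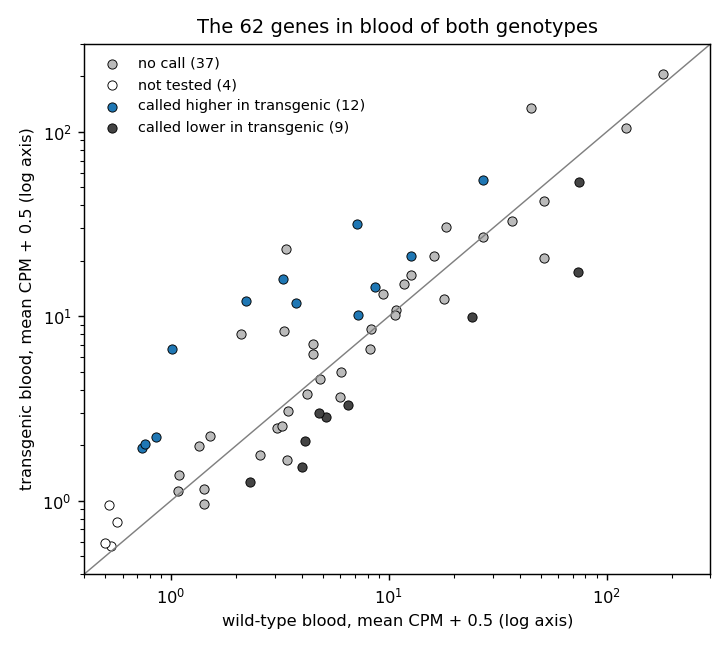
Mean level of each of the 62 genes in transgenic against wild-type blood, as CPM + 0.5 on log axes, with the line of equality. Blue points (12) were called higher and dark points (9) lower in transgenic cells, on both sides of the line, 37 grey points had no call, and 4 white points were not tested.

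Spread between replicates was wider for these genes than over all tested genes, the members included. The median SD of log2(CPM + 0.5) over the 3 libraries was 0.38 for the members and 0.16 for all tested genes in the meninges, and 0.45 and 0.22 in the parenchyma. In transgenic blood it was 0.32 and 0.18, and in wild-type blood 0.25 and 0.18. Many members had low counts in blood, and the part of that in the spread there was not tested. Outside wild-type blood, the same values had helped to choose the genes, and the part of that choice in the spread was not tested either.

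The libraries also differed together. Meningeal replicate 1 was the lowest of its group in 48 of the 62 genes, and in 44.7% of all tested genes. It was under 0.5 times both others in 9 members (14.5%), against 0.305% of all tested genes. Among these were the 2 genes with the largest M/B, at 284 and 95.9 CPM in that library. In the parenchyma, replicate 1 was the highest in 44 of the 62 genes and in 31.9% of all tested genes. Parenchymal replicate 2 was under 0.5 times both others in 9 members (14.5%), against 2.85% of all tested genes. Parenchymal replicate 3 exceeded 2 times both others in 3 members (4.84%) and in 4.33% of all tested genes. It had a count in 17095 gene rows, against 15725 and 15400 in parenchymal replicates 1 and 2.

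Wild-type blood replicate 1 stood apart for part of the set. It exceeded 2 times both other wild-type libraries in 8 members (12.9%), and in 16 of all 11809 tested genes (0.135%), so that members made up 8 of the 16. Of the 8, 7 had an M/B of at least 10, a size reached by 18 of the 62. ENSRNOG00000012467 stood at 14.3, 1.07 and 1.13 CPM in the wild-type blood libraries, and ENSRNOG00000026293 at 115, 19.4 and 18.6 CPM. The values in that library were above all transgenic blood libraries in 6 of the 8 and below all meningeal libraries in 7 of the 8. The remaining wild-type libraries exceeded 2 times both others in 0 members each. Transgenic blood replicate 1 did so in 5 members (8.06%), against 0.517% of all tested genes: the 3 genes without a call described above, ENSRNOG00000014387 and ENSRNOG00000003745. None of these 5 was among the 8.

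**Figure D5:**
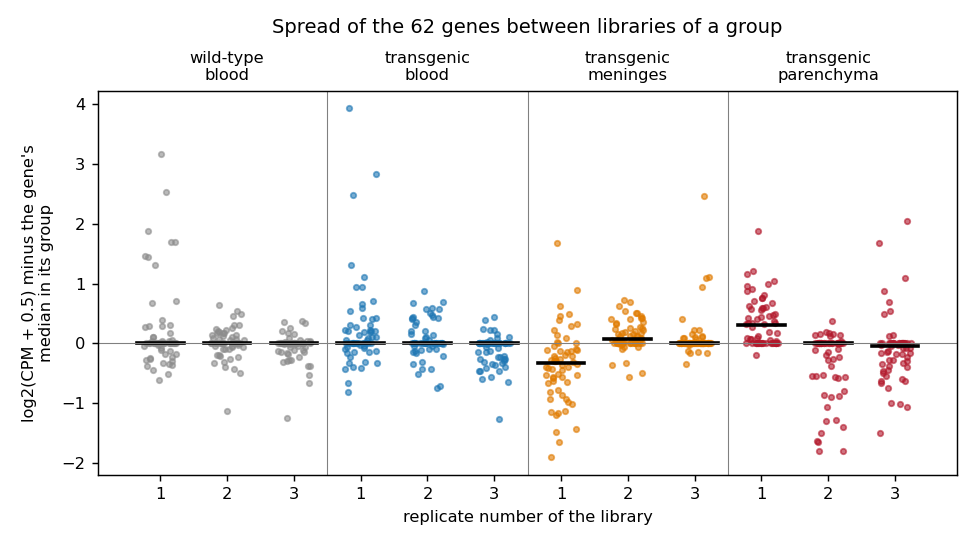
Difference of each of the 62 genes from its group's median library, on the log2(CPM + 0.5) scale, by library; the black line is the median over genes. Meningeal replicate 1 lies low and parenchymal replicate 1 high for most genes, and a few genes stand well above the rest in replicate 1 of each blood group.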

How the data were processed

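The authors deposited 1 table per library of raw counts by gene. The submitters' processing notes name STAR 2.5, featureCounts 1.5.0-p1 and build rn6, with bcl2fastq 2.17.1.14, R 3.4.2, FastQC 0.11.5 and DESeq2 1.14.1. No source used here gives settings, strand or annotation, so overlapping or near-identical genes may share counts. The labels name a TruSeq and a NEBNext low-input kit without assigning them, and a kit that differed between groups cannot be told apart from the group.

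The rule used counts over file totals. Tests used edgeR 4.0.16 in R 4.3.3 (filterByExpr with a minimum count of 10, TMM, quasi-likelihood F test, two-sided, Benjamini-Hochberg adjustment over all genes tested, threshold 0.05), on 9 transgenic libraries for tissues (6 residual degrees of freedom) and 6 blood libraries for genotype (4). The SE is the log2 fold change over the root of F. The procedure was also run on drawn counts with known changes, whose outcome is not given here and is not used. Alternatives were DESeq2 1.42.0, its size factors, no filter, other sets of groups, the replicate number as a block, and single libraries left out. The members and lists were chosen with earlier results of these data known. Genes could be named by M/B or mean meningeal CPM (highest 15), by nearness to a limit of the rule (3 on each side), or by the ratio of wild-type to transgenic blood (5 at each end). As identifiers alone carry no function, only the first of these, called members in small counts and members named after their values were seen are printed. Pathway lists, cell type markers and promoter motifs had been set down by gene symbol and, with 0 members matched to a name, were not used.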

Additional observations from a re-analysis of the deposited data

How the results depend on the processing

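The number of genes that met the rule, 62, lay between 53 and 69 with single libraries left out, and was 66 with TMM-scaled libraries and 59 with a pseudocount of 1. It was 38 with M/B of at least 6. In a setting chosen after seeing the data, with wild-type blood in place of transgenic blood, it was 102, of which 52 were among the 62. Members called in parenchyma against meninges, 4 in all, numbered 8 with DESeq2 (6 higher and 2 lower). With single libraries left out they numbered from 1, without meningeal replicate 3, to 7, without parenchymal replicate 3, and 2 without meningeal replicate 2. Members called in the remaining comparisons stayed within 1.5 times the reported number in all alternatives run: for genotype, 15 to 27 against 21. Over 14 results for single genes named here, 153 alternative values included 0 of opposite direction, 14 that no longer passed the threshold and 6 that newly passed it. For meninges against transgenic blood the rule had set the direction, and the remaining results were calls in the main fit. A reversal was therefore unlikely in advance, and nothing is read from the 0. With the replicate number as a block, 59, 59, 4 and 22 members were called in meninges and parenchyma against transgenic blood, parenchyma against meninges, and genotype. ENSRNOG00000001187 then passed in the first of these and ENSRNOG00000017828 no longer in the comparison of the brain compartments. The numbers mark no shared animal in the labels. Same-numbered libraries deviated together, at a correlation over 0.1, in 2 of 3 pairs of meninges and blood. They did so in 0 of 3 pairs of parenchyma with either tissue, and in 1 of 3 pairs of the genotypes. Unlike-numbered libraries correlated as highly, up to 0.378, so the block is given as an alternative only. Over all genes, calls in meninges against transgenic blood numbered 769, against 1318 with DESeq2, 1255 with only these groups, and 359, 411, 346 and 400 without transgenic blood replicate 2 or 3 or meningeal replicate 2 or 3. In parenchyma against meninges they numbered 1828, against 1103, 730 and 809 without meningeal replicate 1, 2 or 3, and for genotype 3002, against 1789 without transgenic blood replicate 1. Few counts in blood limit the comparison of genotypes: 4 of the 62 fell below the filter of the main fit and were not tested there. With no filter, or with all 12 libraries in the fit, all 62 were tested.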

Other observations

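Other rows followed the members' mean course over the 9 transgenic libraries without meeting the rule. Among 8832 rows with at least 5 CPM in the meninges outside the set, Pearson's correlation of log2(CPM + 0.5) with the members' mean standardised level was highest in ENSRNOG00000047339, at 0.985, and next in ENSRNOG00000045918, at 0.985. Their mean levels were 22.9, 68.8 and 72.5 CPM, and 42.9, 77.1 and 80.6 CPM, in transgenic blood, meninges and parenchyma. Their M/B was 2.96 and 1.79, under the limit of 4, and P/M was 1.05 for both. The libraries fall into tissue groups and share the blood libraries with the rule, so the correlation is a description. Members themselves had correlations from 0.722 upwards, with the lowest values in ENSRNOG00000026293 and in the 3 genes high in transgenic blood replicate 1. Each member is part of that mean and was chosen on the same 9 libraries. High values were thus favoured in advance, and they are no like measure to those of rows outside the set.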
